A study of Rattus norvegicus with 12 samples.

Results

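The NFAT5KO libraries are the 6 of the series' 12 that were made from UMR-106 cells labelled as NFAT5 knockout. They were chosen by their labels alone, 3 with high and 3 with low NaCl, and the question put to them here is which genes still respond to salt once this transcription factor is gone. UMR-106 is a rat osteoblast-like line, and the NFAT5KO cells came from a single CRISPR/Cas9-edited cell, so the deletion and any other feature of that clone cannot be told apart. The comparison is of NFAT5KO cells with +NaCl (NaCl raised by 20 mM, n = 3) against NFAT5KO cells with -NaCl (NaCl lowered by 20 mM, n = 3), and control UMR-106 cells with +NaCl and with -NaCl (n = 3 each) show the response with NFAT5 present. All 4 groups were kept for 24 h in medium with 1 nM 1,25-dihydroxyvitamin D3, so calcitriol was present everywhere and the media of one genotype differed by 40 mM NaCl. For low NaCl the paper used a custom NaCl-free stock of another supplier, described as matching the usual DMEM except for NaCl. The source of the medium and its NaCl therefore cannot be told apart. No group had standard medium, so a difference between the media can come from either side. The libraries are called biological replicates, without a statement of whether cultures were run on separate days.

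NFAT5, also called TonEBP, is the transcription factor that mammalian cells use to adapt to hypertonic surroundings. It drives genes for organic osmolyte transport and synthesis and for chaperones, which let a cell hold water without concentrating its own salts. Cells also sense a change of volume or ionic strength through ion channels and kinases of the WNK family, and take up neutral amino acids as osmolytes. Osteoblasts lay down and mineralize bone matrix, and the osteoblast lineage is the main source of FGF23, the hormone that lowers phosphate.

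The values are read counts per gene, normalized by the authors within the NFAT5KO table. The reads behind them could be recovered, and they came to 14267946 to 21676047 per +NaCl library and 16333851 to 22798804 per -NaCl library. Differences are log2 fold changes of +NaCl over -NaCl on the scale of log2(normalized count + 1), with their standard error (SE), so a positive value means a higher count with +NaCl. A gene was called when its p value from limma, adjusted over all genes tested by the method of Benjamini and Hochberg, was below 0.05. For a single gene, exact permutation of 3 against 3 libraries gives no p under 0.10, so the calls rest on spread shared across genes. Along the first principal component, which held 30.7% of the variance, the +NaCl libraries lay at 25.4, 39.8 and 23.9 and the -NaCl libraries at -9.56, -47.2 and -32.4. The -NaCl replicate 1 stood between its group mates and the +NaCl libraries. The difference between it and the +NaCl mean, over the called genes, was 58.9% of that of its group mates, against 126% and 103% for -NaCl replicates 2 and 3. All 9 osteoblast markers were counted and 5 of them were called higher, with a summed normalized count of 89360 to 95254 in +NaCl and 68112 to 80033 in -NaCl libraries. The markers of leukocytes (6 of 10 listed), endothelium (6 of 8) and muscle (6 of 10) each had a mean under 50, and Emcn, Des and Tnnt2 held at most 3 reads over the 6 libraries. Leukocyte markers summed to 23.8 to 30.6 in +NaCl and 17.5 to 22.2 in -NaCl libraries, endothelial ones to 30.5 to 50.03 in +NaCl and 19.6 to 40.7 in -NaCl libraries, and muscle ones to 5.96 to 14.03 in +NaCl and 5.12 to 11.2 in -NaCl libraries. Osteoclast markers (4 of 9) summed to 211 to 249.1 in +NaCl and 233 to 280.1 in -NaCl, and neuron and glia markers (7 of 9) to 642 to 666 in +NaCl and 689.8 to 751 in -NaCl libraries. Chondrocyte markers summed to 2952 to 3172 in +NaCl and 3421 to 3811 in -NaCl libraries, with 3 of 11 called lower (0 without -NaCl replicate 2 and 1 without +NaCl replicate 3 or -NaCl replicate 3). Adipocyte markers summed to 678 to 799 in +NaCl and 1065 to 1420 in -NaCl libraries, with 2 of 6 tested called lower (1 without +NaCl replicate 2 or -NaCl replicates 1, 2 or 3). A mean under 50 was found for 6 of 11 chondrocyte, 7 of 8 adipocyte, 3 of 4 osteoclast and 5 of 7 neuron and glia markers. The chondrocyte sum was mostly Hapln1, which averaged 1885 with +NaCl and 2242 with -NaCl. The part of these markers in the results was not tested. Among all genes tested, 7.29% were called higher and 7.37% lower.

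Nfat5 itself was still counted in the knockout clone (ENSRNOG00000011879, chromosome 19, 38446059 to 38533735, build not stated), and its transcript still responded to salt. It had 1403, 1590.4 and 1626 normalized counts with +NaCl, against 1036, 792 and 843 with -NaCl. The 3 +NaCl libraries were all above the 3 -NaCl libraries, and -NaCl replicate 1 was the highest of the low-salt group. The log2 fold change was 0.80 ± 0.10 (SE, adjusted p = 0.00085), against 0.64 in control cells, a difference of 0.16 between the genotypes (adjusted p = 0.61). Control cells, whose table was normalized separately, listed 4292, 4217 and 4574 with +NaCl and 2925, 2689 and 2799 with -NaCl. Gene-level counts do not show which exons the remaining reads cover. The paper reported loss of NFAT5 protein by immunoblot and no Nfat5 mRNA by qRT-PCR with primers for the deletion. Protein was not measured by the counts here. Without a mean-variance trend in the model the adjusted p of Nfat5 was 0.076.

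Of 16657 genes tested, 2441 were called (14.7%), 1214 higher and 1227 lower with +NaCl. Before adjustment, 4922 genes had a p under 0.05. Most changes were small, with a median log2 fold change of 0.35 among the higher and -0.39 among the lower genes, and 68.1% of the called genes moved by less than 0.5. Only 112 genes were more than 2-fold higher and 116 more than 2-fold lower. The +NaCl and -NaCl libraries did not overlap for 2420 of the called genes and for 34.3% of all genes tested. The median over all genes was 0.00. The number of calls depended on which libraries were kept. Leaving out -NaCl replicate 2 gave 923 calls and leaving out -NaCl replicate 3 gave 1098. Leaving out +NaCl replicate 3 gave 1393, and leaving out -NaCl replicate 1 gave 2706. In every one of the 6 fits that left out 1 library, 834 genes were called again, 435 higher and 399 lower. The model without a mean-variance trend called 14 genes, against 2340 by edgeR and 2567 by DESeq2 on the recovered reads, and 2307 of the genes called here were also called by edgeR.

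**Figure D1:**
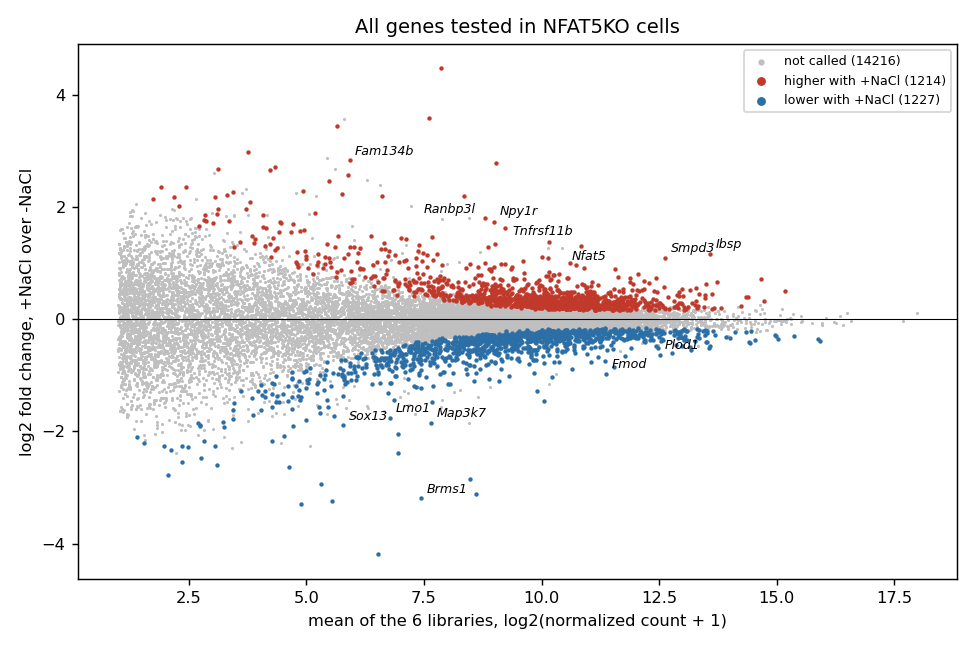
Log2 fold change of +NaCl over -NaCl in NFAT5KO cells (vertical axis) against the mean of log2(normalized count + 1) of each gene over the 6 libraries (horizontal axis), with the 1214 genes called higher and the 1227 called lower in colour and the other tested genes in grey. Called genes lie on both sides of 0 and most of them within 0.5 of it.

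Among called genes that had an established symbol, averaged 50 or more normalized counts and did not overlap between the groups, the 15 with the largest rises are given here. Ranbp3l, which encodes a nuclear export factor for SMAD proteins, had 675, 684 and 682 normalized counts with +NaCl, against 303, 160.1 and 151 with -NaCl. The +NaCl libraries were nearly identical, every -NaCl library was well below them, and -NaCl replicate 1 was the highest of its group. Its log2 fold change was 1.80 ± 0.20 (SE, adjusted p = 0.00065). Npy1r, a receptor for neuropeptide Y, had 773, 759 and 786 normalized counts with +NaCl, against 342, 177 and 207 with -NaCl, a log2 fold change of 1.73 ± 0.18 (SE, adjusted p = 0.00056). Its neighbour Npy5r, another neuropeptide Y receptor, had 74, 94.1 and 97.5 normalized counts with +NaCl, against 54.2, 22.4 and 36.7 with -NaCl. Both receptors were higher in each +NaCl library than in any -NaCl library, although the call of Npy5r (1.28 ± 0.29, adjusted p = 0.014) was lost without +NaCl replicate 3 (adjusted p = 0.057).

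Promoters of the tested genes were read from RefSeq (assembly GRCr8), in a window of 250 bases before to 50 after each start, and 9615 of the 16105 symbols tested had one. The core of the NFAT5 binding site, TGGAAA on either strand, was present in 117 of 842 promoters of genes called higher (13.9%), in 154 of 823 of genes called lower (18.7%) and in 16.3% of all. The AP-1 site TGANTCA was present in 3.68%, 4.50% and 4.87%. A match is a description of letters, not a site in use, and enhancers lie outside this window. Shown next are the 250 bases before the start of 4 genes, chosen because the divergent neighbours Npy1r and Npy5r rose together, Ibsp, of the bone list, rose and Phgdh, of the serine list, fell. Capitals mark the motifs, and TTTCCA is TGGAAA read on the other strand.
Npy1r (GRCr8, chr16:27813388-27813637, minus strand): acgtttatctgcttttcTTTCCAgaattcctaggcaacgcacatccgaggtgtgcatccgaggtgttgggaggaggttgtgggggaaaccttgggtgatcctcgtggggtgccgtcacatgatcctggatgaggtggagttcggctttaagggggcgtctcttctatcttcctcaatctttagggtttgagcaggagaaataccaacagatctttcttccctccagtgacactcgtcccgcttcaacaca
Npy5r (GRCr8, chr16:27821805-27822054, plus strand): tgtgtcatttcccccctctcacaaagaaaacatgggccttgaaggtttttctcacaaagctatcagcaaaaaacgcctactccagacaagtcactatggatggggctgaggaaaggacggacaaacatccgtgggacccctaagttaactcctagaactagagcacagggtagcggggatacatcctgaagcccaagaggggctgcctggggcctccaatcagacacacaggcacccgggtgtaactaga
Ibsp (GRCr8, chr14:5757243-5757492, minus strand): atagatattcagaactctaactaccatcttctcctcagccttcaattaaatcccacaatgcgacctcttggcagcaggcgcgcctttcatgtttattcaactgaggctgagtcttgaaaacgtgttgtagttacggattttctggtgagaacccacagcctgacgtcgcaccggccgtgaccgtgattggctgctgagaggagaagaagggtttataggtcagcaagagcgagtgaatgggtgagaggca
Phgdh (GRCr8, chr2:188624790-188625039, minus strand): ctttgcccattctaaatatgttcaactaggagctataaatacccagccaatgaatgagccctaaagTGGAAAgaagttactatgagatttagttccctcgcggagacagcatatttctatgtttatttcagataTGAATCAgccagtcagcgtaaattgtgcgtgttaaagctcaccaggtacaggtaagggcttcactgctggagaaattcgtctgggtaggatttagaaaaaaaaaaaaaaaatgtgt
The starts of Npy1r and Npy5r lie 8668 bases apart. The Npy1r stretch holds 1 TGGAAA match, beginning 233 bases before the start, and the stretches of Npy5r and Ibsp hold neither motif. In Phgdh, which fell, TGGAAA begins 184 bases and TGAATCA 116 bases before the start.

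Tnfrsf11b encodes osteoprotegerin, the secreted decoy receptor that restrains osteoclast formation. It had 986, 843 and 860.1 normalized counts with +NaCl, against 409, 246 and 238 with -NaCl, a log2 fold change of 1.63 ± 0.17 (SE, adjusted p = 0.00049). The groups were well apart, and the lowest +NaCl library held more than any -NaCl library. Dysf, encoding the membrane repair protein dysferlin, had 1679, 1602 and 1616 normalized counts with +NaCl, against 871, 544 and 528 with -NaCl (log2 fold change 1.37 ± 0.15, adjusted p = 0.00056). Apcdd1, a membrane inhibitor of Wnt signalling, had 2693, 2447 and 2639 normalized counts with +NaCl, against 1439.7, 863 and 911 with -NaCl (log2 fold change 1.31 ± 0.15, adjusted p = 0.00065). Cyp26b1, a retinoic acid-degrading enzyme, rose by 1.34 ± 0.23 on the log2 scale, and Cemip, a hyaluronan-degrading protein, by 1.29 ± 0.16. The groups did not overlap for any of these genes.

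The other genes among these 15 were the pore subunit of an L-type calcium channel, Cacna1d (1.33 ± 0.16), the microtubule-binding protein Dcx (1.37 ± 0.19), Ahnak2 (1.43 ± 0.23), the zinc finger gene Zfp458 (1.47 ± 0.18) and Frmd5 (1.29 ± 0.23), all log2 fold changes with their SE. Cacna1d, Zfp458 and Frmd5 each overlap another listed gene, and counts of overlapping genes could not be separated. Chit1, a chitinase, rose by 1.49 ± 0.34 (adjusted p = 0.015), a call lost without -NaCl replicate 2 (adjusted p = 0.066) or +NaCl replicate 3 (adjusted p = 0.057). The largest of the 15 belonged to Fam134b (ENSRNOG00000057522), which encodes a receptor for selective autophagy of the endoplasmic reticulum, at 2.84 ± 0.81 (adjusted p = 0.037). It had 91.8, 96.5 and 83.9 normalized counts with +NaCl, against 75, 6.72 and 2.56 with -NaCl, so -NaCl replicate 1 lay far above its group mates. The log2 fold change of Fam134b was 4.13 ± 0.37 without that library, and the call was lost without any 1 of the other 5 (adjusted p up to 0.15). A second gene model with the same symbol had a log2 fold change of -0.71 (adjusted p = 0.15), so the direction of Fam134b as a gene is uncertain.

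**Figure D2:**
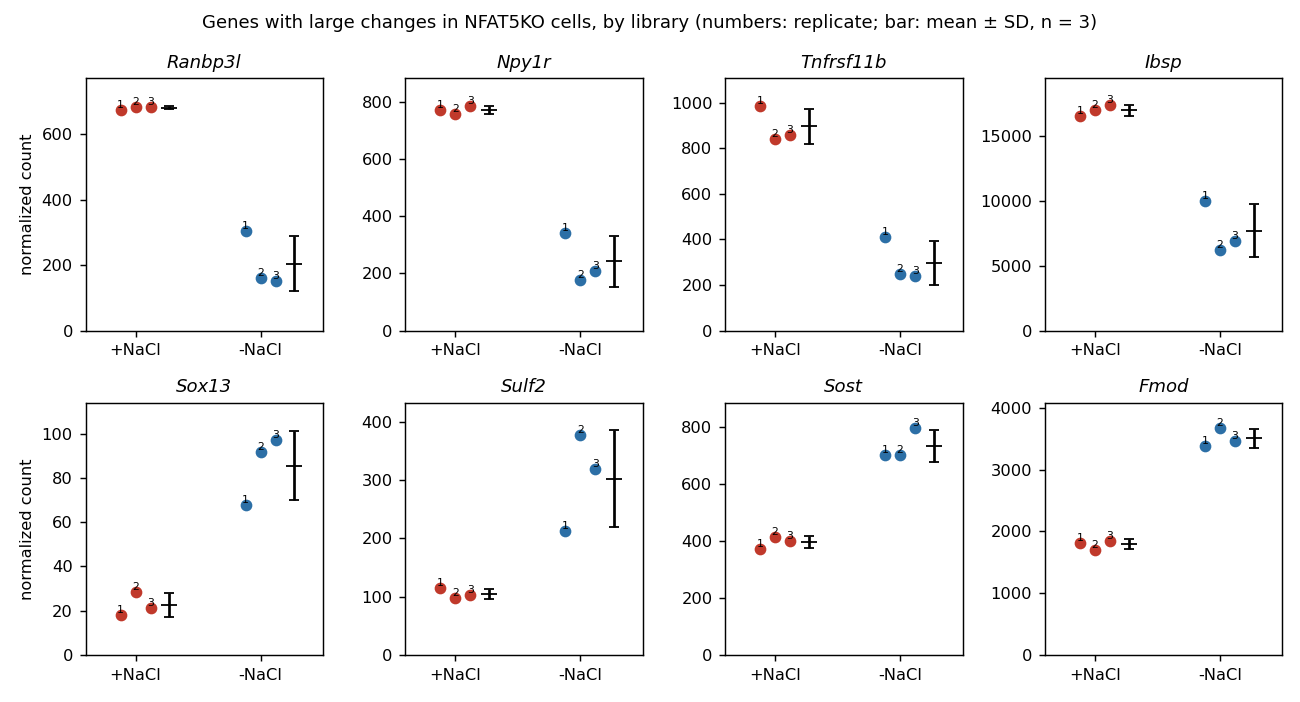
Normalized counts (vertical axis, from 0) of 8 genes in the +NaCl libraries (red, left) and the -NaCl libraries (blue, right) of NFAT5KO cells, 1 point per library with its replicate number, and beside each group the mean with a bar of 1 SD either way (n = 3). The groups are apart in every panel, and in Ranbp3l, Npy1r, Tnfrsf11b, Ibsp, Sox13 and Sulf2 -NaCl replicate 1 lies nearest to the +NaCl points.

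The falls were chosen by the same limits. Sox13, a transcription factor of the SOX family, had 17.9, 28.6 and 21.2 normalized counts with +NaCl, against 67.8, 91.8 and 97.3 with -NaCl. Every -NaCl library was above every +NaCl library, and the log2 fold change was -1.89 ± 0.25 (SE, adjusted p = 0.0013). Sulf2, which removes sulfate groups from heparan sulfate, had 115, 97.7 and 103 normalized counts with +NaCl, against 212, 377 and 318 with -NaCl (log2 fold change -1.48 ± 0.18, adjusted p = 0.0011). Slc29a4, a monoamine transporter, had 102, 98.9 and 107 normalized counts with +NaCl, against 215, 251 and 256 with -NaCl (log2 fold change -1.22 ± 0.13, adjusted p = 0.00049). In both genes every +NaCl library was below every -NaCl library. The transcriptional regulator Lmo1 fell by 1.76 ± 0.27, the kinase Mark1 by 1.21 ± 0.17 and the adhesion protein gene Parvb by 1.19 ± 0.14 on the log2 scale. Map3k7, the kinase TAK1 of TGF-beta and cytokine signalling, was listed at 162, 53.6 and 59.3 normalized counts with +NaCl, against 428, 186 and 309 with -NaCl, a log2 fold change of -1.84 ± 0.38 (adjusted p = 0.0088). Other falls that were called in every leave-out fit were those of Lppr5 (-1.44 ± 0.16), Cep70 (-1.31 ± 0.19), Ydjc (-1.19 ± 0.19) and Osgin1 (-1.16 ± 0.23).

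Further falls rested on particular libraries. Brms1 had 15.3, 11.9 and 141 normalized counts with +NaCl, against 201, 319 and 349 with -NaCl, a log2 fold change of -3.19 ± 0.68 (adjusted p = 0.011, lost without -NaCl replicate 2, adjusted p up to 0.054). Hnrnpc, an RNA-binding protein gene, had 677, 789.8 and 286 normalized counts with +NaCl, against 889, 1636 and 1491 with -NaCl (log2 fold change -1.27 ± 0.32, adjusted p = 0.021, lost without -NaCl replicate 2 or -NaCl replicate 3, adjusted p up to 0.1). The spread within a group was wide in both genes. Ass1, an enzyme of arginine synthesis, was at 29.7 ± 10.3 with +NaCl and 77.3 ± 22.9 with -NaCl normalized counts (SD, n = 3 each), a log2 fold change of -1.36 ± 0.31 (adjusted p = 0.014, lost without -NaCl replicate 2 or -NaCl replicate 3, adjusted p up to 0.079).

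Osteoblast and mineralization genes were more often higher than lower with +NaCl in NFAT5KO cells. This list was chosen for its role in bone, but with earlier results of these data known, so its counts are a description. Of 29 tested, 13 were higher and 2 lower (median log2 fold change 0.34), beside 7.29% and 7.37% of all genes and a median of 0.00 over all genes. The counts of higher and lower genes were 11 to 14 and 2 when each library was left out. In control cells the median of this list was 0.63. A called difference was found for 8 members, each lower in NFAT5KO, beside 1.44% of all genes. Ibsp, encoding bone sialoprotein, which binds mineral, had 16482, 16978 and 17364 normalized counts with +NaCl, against 9993, 6190.2 and 6861 with -NaCl. All +NaCl libraries were above all -NaCl libraries, with a log2 fold change of 1.17 ± 0.13 (SE, adjusted p = 0.00065). Smpd3, a sphingomyelinase needed for mineralization, had 8497, 8384 and 8824 normalized counts with +NaCl, against 5578, 3300 and 3504 with -NaCl (log2 fold change 1.09 ± 0.15, adjusted p = 0.0013). Phospho1, a phosphatase that releases phosphate inside matrix vesicles, had 1773, 1399 and 1515 normalized counts with +NaCl, against 1176, 744 and 816 with -NaCl (log2 fold change 0.80 ± 0.14, adjusted p = 0.0046). Neither gene's groups overlapped.

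The transcription factors of the lineage moved less. Mef2c rose by 0.54 ± 0.07 and Runx2 by 0.30 ± 0.06 on the log2 scale, each called in every leave-out fit. The rise of Runx2 was smaller than the 0.63 of control cells (difference -0.33 ± 0.07, adjusted p = 0.031, up to 0.079 with 1 library left out). Sp7, known as osterix, rose by 0.33 ± 0.07 (adjusted p = 0.012, lost without -NaCl replicate 2, -NaCl replicate 3 or +NaCl replicate 3, adjusted p up to 0.065). Ifitm5, an osteoblast membrane protein, rose by 0.62 ± 0.10. Dlx3, a homeobox gene, fell by 0.62 ± 0.08. Sost, which encodes sclerostin, an inhibitor of Wnt signalling in bone, had 372, 413 and 397 normalized counts with +NaCl, against 701, 699.9 and 797 with -NaCl. Every +NaCl library was below every -NaCl library, and the gene fell by 0.89 ± 0.08 on the log2 scale (adjusted p = 0.00049). Col1a1, the main collagen chain of bone, was at 27894 ± 2415 with +NaCl and 23416 ± 2219 with -NaCl (SD, n = 3 each), a log2 fold change of 0.25 ± 0.08 (adjusted p = 0.059).

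Fgf23 was at the limit of detection in the clone. It had 1.28, 2.38 and 5.08 normalized counts with +NaCl, against 9.57, 5.60 and 9.39 with -NaCl, from 1, 2 and 6 recovered reads with +NaCl and 12, 5 and 11 with -NaCl. After normalization the groups did not overlap, but the nearest libraries of the groups held 6 and 5 reads. The log2 fold change of -1.32 ± 0.53 did not pass the test (adjusted p = 0.12), and its 95% interval ran over -2.48 to -0.15. Among 18 tested genes of FGF23 and its regulators, 6 were higher and 1 lower, beside 7.29% and 7.37% of all genes. Pth1r, the parathyroid hormone receptor, had 5002, 4899.8 and 4917 normalized counts with +NaCl, against 3914, 3249.6 and 3230.2 with -NaCl (log2 fold change 0.52 ± 0.07, adjusted p = 0.0013), and its groups did not overlap. Fgfr1, an FGF receptor, rose by 0.43 ± 0.06, and it overlaps a small RNA gene on the other strand. Enpp1 and Ankh, which supply extracellular pyrophosphate, rose by 0.49 ± 0.08 and 0.42 ± 0.07. Both rises were smaller than in control cells (0.98 and 0.82), with differences of -0.48 ± 0.09 (adjusted p = 0.012) and -0.40 ± 0.08 (adjusted p = 0.016, lost when control -NaCl replicate 2 or control +NaCl replicate 3 was left out, adjusted p up to 0.057).

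Regulators that did not pass the test had intervals that still allow changes. Phex, an endopeptidase whose loss raises FGF23, had 56.1, 63.1 and 55.1 normalized counts with +NaCl, against 44.7, 34.7 and 35.9 with -NaCl. The groups did not overlap, but the log2 fold change of 0.59 ± 0.22 had an adjusted p of 0.089 (95% interval 0.12 to 1.06). By qRT-PCR, the paper saw no rise of Phex with high NaCl in NFAT5KO cells, and on that basis counts it as an NFAT5 target. Dmp1, a matrix protein of osteocytes, had a log2 fold change of 0.34 (interval 0.05 to 0.64, adjusted p = 0.11). Those of Nfkbia, Foxo1 and Akt1 were 0.10 (-0.05 to 0.26), 0.12 (-0.03 to 0.27) and 0.04 (-0.09 to 0.17), with adjusted p values of 0.36, 0.27 and 0.72. Mmp3 held 2 reads in all +NaCl libraries and 0 in all -NaCl libraries, too few for a test. Of the vitamin D receptor axis, 0 were higher and 2 lower of 15 tested (median log2 fold change -0.02), beside 7.29% and 7.37% of all genes. None was higher by limma, edgeR or DESeq2, nor at an unadjusted p under 0.05, and the lower genes numbered 0 without -NaCl replicate 2 or -NaCl replicate 3 to 2 without -NaCl replicate 1 or +NaCl replicate 2.

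**Figure D3:**
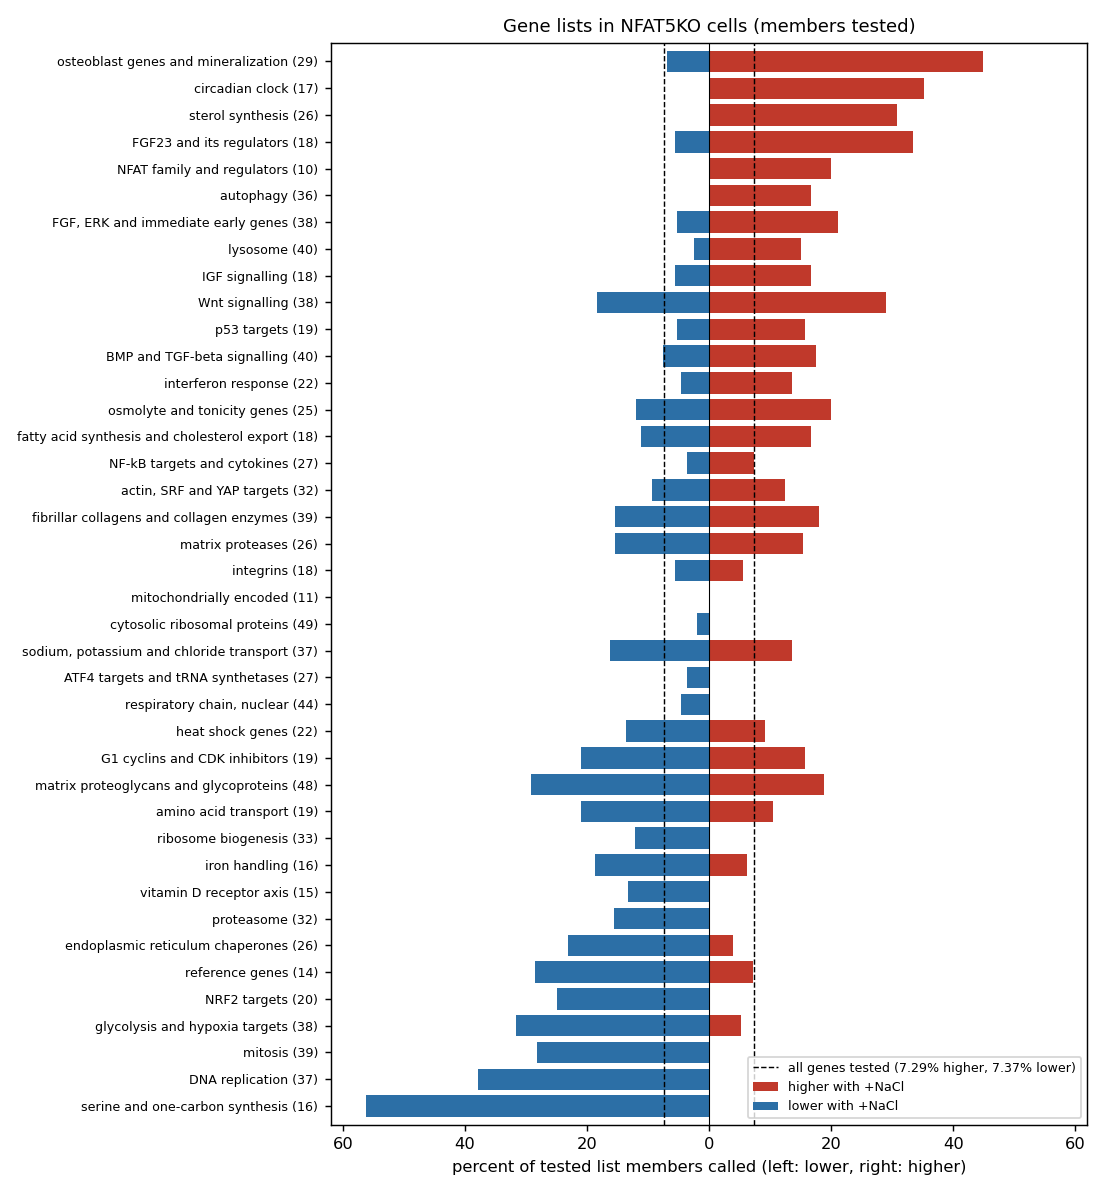
Percentage of the tested members of each gene list (rows, number tested in parentheses) called higher (red, right of 0) and lower (blue, left of 0) with +NaCl in NFAT5KO cells, with dashed lines at the 7.29% and 7.37% of all genes tested. Osteoblast and mineralization genes reach furthest to the right, and serine and one-carbon synthesis genes furthest to the left.

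Osmolyte and tonicity genes gave a mixed picture without NFAT5. Of 25 tested, 5 were higher and 3 lower, beside 7.29% and 7.37% of all genes. The median was 0.10 against 0.46 in control cells. Of the list, 7 members had a called difference, each lower in NFAT5KO, beside 1.44% of all genes. The higher count was 3 without +NaCl replicate 3 or -NaCl replicate 2, and the lower one 1 without +NaCl replicate 3 or -NaCl replicates 2 or 3. The list is wider than osmolyte transport and synthesis, with Ranbp3l and S100a4 among its rises and Slc2a1 among its falls. The osmolyte transporters Slc5a3 and Slc6a12 had no entry among the counted genes, so they were not tested. Slc6a6, the taurine transporter, had 5339.8, 5417 and 5699.8 normalized counts with +NaCl, against 4738, 4404 and 4970.4 with -NaCl, a log2 fold change of 0.22 ± 0.06 (adjusted p = 0.023, lost without -NaCl replicate 2 or +NaCl replicate 3, adjusted p up to 0.1). The sodium-coupled neutral amino acid transporters Slc38a4 and Slc38a2 were clearer. Slc38a1, of the same family, instead had a log2 fold change of -0.30 ± 0.09 (adjusted p = 0.048, lost in 5 leave-out fits). Slc38a7, Slc38a9 and Slc38a10 were not called. Slc38a4 had 1514, 1474 and 1587 normalized counts with +NaCl, against 893, 618 and 657 with -NaCl and Slc38a2 had 6497, 6499.7 and 6753 normalized counts with +NaCl, against 4746, 4144 and 5174 with -NaCl. The groups did not overlap in either, and the log2 fold changes were 1.09 ± 0.11 (adjusted p = 0.00049) and 0.50 ± 0.07 (adjusted p = 0.0019). Akr1b1, the aldose reductase that makes sorbitol, moved the other way, by -0.26 ± 0.06 (adjusted p = 0.015, lost without -NaCl replicate 2, -NaCl replicate 3 or +NaCl replicate 3, adjusted p up to 0.078). In control cells it was 0.12, a difference of -0.38 ± 0.08 (adjusted p = 0.019, lost when control -NaCl replicate 1, control -NaCl replicate 2 or control +NaCl replicate 3 was left out, adjusted p up to 0.066).

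Ion transport genes split evenly, with 5 higher and 6 lower of 37 tested (median 0.00), beside 7.29% and 7.37% of all genes. The higher count ran from 0 without -NaCl replicate 2 to 6 without -NaCl replicate 1 or +NaCl replicate 2, and the lower one from 5 without any library other than -NaCl replicate 1 and +NaCl replicate 3 to 7 without -NaCl replicate 1. Slc12a2, the sodium-potassium-chloride cotransporter of volume regulation, had a log2 fold change of 0.35 ± 0.08 (adjusted p = 0.017, lost without -NaCl replicate 2, -NaCl replicate 3 or +NaCl replicate 3, adjusted p up to 0.063). Trpv4, an osmosensitive cation channel, had 2082, 2137 and 2156 normalized counts with +NaCl, against 2556, 2752 and 2887 with -NaCl, a log2 fold change of -0.36 ± 0.06 (adjusted p = 0.0027). Lrrc8d, a subunit of the volume-regulated anion channel, fell by 0.40 ± 0.08. The sodium-calcium exchanger Slc8a1 and the kinase Sgk1 were not called, at 0.15 (-0.16 to 0.47) and 0.20 (-0.05 to 0.45), log2 fold changes with 95% intervals and adjusted p values of 0.53 and 0.28.

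Genes for making serine and one-carbon units fell. Of 16 tested, 9 were lower and 0 higher by limma, beside 7.37% and 7.29% of all genes. The lower genes numbered 9 by edgeR, 10 by DESeq2 and 11 at an unadjusted p under 0.05, and none was higher by any of these. The median was -0.33, and the lower count was 6 to 11 when each library was left out, highest without -NaCl replicate 1. Phgdh, which catalyses the first step of serine synthesis, had 4918, 4324 and 4796 normalized counts with +NaCl, against 5914, 6912 and 7149.6 with -NaCl. Psat1, which catalyses the next, had 1167, 999 and 1126 normalized counts with +NaCl, against 1390.2, 1574 and 1988 with -NaCl. Neither gene's groups overlapped, and the log2 fold changes were -0.51 ± 0.07 (adjusted p = 0.002) and -0.58 ± 0.11 (adjusted p = 0.0064). Pycr1, of proline synthesis, fell by 0.53 ± 0.10, and Mthfd1l and Gcsh, of mitochondrial one-carbon metabolism, by 0.47 ± 0.08 and 0.37 ± 0.07.

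Amino acid transporters were 2 higher, Slc38a4 and Slc38a2, and 4 lower of 19 tested, beside 7.29% and 7.37% of all genes. Slc1a5, a glutamine transporter, had 403, 380.0 and 488 normalized counts with +NaCl, against 577, 730.1 and 848 with -NaCl (log2 fold change -0.75 ± 0.13, adjusted p = 0.0044), without overlap. The lower count ran from 1 without any library other than -NaCl replicate 1 to 5 without -NaCl replicate 1. Other ATF4 targets and the tRNA synthetases, which ATF4 induces when amino acids run short, had 1 gene lower and 0 higher of 27 by limma (1 higher and 1 lower by edgeR, 0 and 3 by DESeq2, 2 and 7 at an unadjusted p under 0.05). The lower gene was Atf5 (-0.56 ± 0.14, adjusted p = 0.024, lost without -NaCl replicate 2, -NaCl replicate 3, +NaCl replicate 2 or +NaCl replicate 3, adjusted p up to 0.094), and 6 members were lower without -NaCl replicate 1. In control cells the median of this list was -0.52, against -0.10 in NFAT5KO cells, and no difference of a single member was called.

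Several glycolytic enzymes fell, with 12 members lower and 2 higher of 38 glycolysis and hypoxia genes (median -0.06), beside 7.37% and 7.29% of all genes. The lower count ran from 7 without -NaCl replicate 2 to 12 without -NaCl replicate 1. Gapdh had 19240, 17750 and 20169 normalized counts with +NaCl, against 24063, 27050 and 25135 with -NaCl. Hk2, the hexokinase that commits glucose to the pathway, had 1159.5, 1069 and 1252 normalized counts with +NaCl, against 1499, 1776 and 1914 with -NaCl, and Slc2a1, the glucose transporter GLUT1, had 431, 409 and 400.0 normalized counts with +NaCl, against 519, 671 and 724 with -NaCl. In none of them did the groups overlap. The log2 fold changes were -0.42 ± 0.07 (adjusted p = 0.0029), -0.57 ± 0.09 (adjusted p = 0.0025) and -0.61 ± 0.11 (adjusted p = 0.0049). Ldha and Pfkl fell by 0.36 ± 0.06 and 0.42 ± 0.06, and Eno1 by 0.50 ± 0.07 against -0.06 in control cells (difference -0.44 ± 0.08, adjusted p = 0.01). Ndrg1, a stress and hypoxia gene, rose by 0.56 ± 0.08, less than the 1.06 of control cells (difference adjusted p = 0.031, lost in 8 of the 12 leave-out fits, all but without NFAT5KO -NaCl replicate 1, NFAT5KO -NaCl replicate 2, NFAT5KO -NaCl replicate 3 or control -NaCl replicate 3, adjusted p up to 0.087). Gapdh is a common reference gene, with near-identical copies in the genome that could share its reads. Of 14 such genes, 1 was higher and 4 lower (median -0.05), with a lower count of 1 without +NaCl replicate 1 or -NaCl replicate 2 and 2 without +NaCl replicate 3 or -NaCl replicate 3.

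Some genes of DNA replication and mitosis were lower with +NaCl, by small amounts. Of 37 DNA replication genes, 14 were lower (median -0.14), and of 39 mitosis genes, 11 were lower (median -0.08). Among all genes, 7.29% were higher and 7.37% lower. No member of either list was higher by limma, edgeR or DESeq2 or at an unadjusted p under 0.05. The replication count ran from 3 without -NaCl replicate 2 to 14 without -NaCl replicate 1, and the mitosis count from 4 without -NaCl replicate 2 to 12 without -NaCl replicate 1 or +NaCl replicate 2. Tk1, thymidine kinase, had 5705, 5157 and 5752 normalized counts with +NaCl, against 7487, 9269.6 and 8490.1 with -NaCl, a log2 fold change of -0.60 ± 0.08 (adjusted p = 0.0011). Ccne1, the cyclin that starts S phase, had 906, 817 and 966 normalized counts with +NaCl, against 1271, 1531 and 1403 with -NaCl (log2 fold change -0.64 ± 0.08, adjusted p = 0.0011). The groups were apart in both. Pcna, the polymerase clamp, fell by 0.25 ± 0.05, and the mitotic cyclins Ccna2 and Ccnb1 by 0.33 ± 0.05 and 0.33 ± 0.06. Of 19 G1 cyclins and CDK inhibitors, to which Ccne1 belongs, 3 were higher and 4 lower (higher count 1 without -NaCl replicates 2 or 3, lower count 1 without -NaCl replicates 2 or 3 and 2 without +NaCl replicates 1 or 3). The higher ones were Cdkn1b, the inhibitor p27, at 0.32 ± 0.06, Cdkn2b and E2f1. Among 19 p53 targets, 3 were higher (1 without -NaCl replicate 2) and 1 lower, led by the polo-like kinase Plk2 at 0.89 ± 0.16 (adjusted p = 0.0053).

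Sterol synthesis, lysosome and autophagy genes had more rises than falls, where 7.29% of all genes were higher and 7.37% lower. Of 26 sterol genes 8 were higher (median 0.13), with a count of 5 without -NaCl replicate 2 to 11 without -NaCl replicate 1 or +NaCl replicate 2, and none was lower by limma, edgeR or DESeq2 or at an unadjusted p under 0.05. Lss, lanosterol synthase, had 2032, 1952 and 1866 normalized counts with +NaCl, against 1669, 1360.5 and 1430.3 with -NaCl (log2 fold change 0.40 ± 0.07, adjusted p = 0.006), without overlap. Insig2, a retention factor for the sterol sensor, rose by 0.47 ± 0.08, Msmo1 by 0.36 ± 0.07 and Cyp51 by 0.25 ± 0.05. Abca1, the cholesterol exporter, rose by 0.39 ± 0.08, and the fatty acid desaturase Fads1 fell by 0.49 ± 0.07.

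Of 40 lysosome genes 6 were higher and 1 lower, with the higher count running from 1 without -NaCl replicate 3 to 6 without -NaCl replicate 1 or +NaCl replicate 2. A called difference from control cells was found for 6 lysosome genes, each lower in NFAT5KO, beside 1.44% of all genes. The list's median was 0.08 in NFAT5KO against 0.30 in control. Atp6ap1, of the proton pump, rose by 0.30 ± 0.05 and the protease Ctsz fell by 0.43 ± 0.07. Autophagy genes were 6 higher and 0 lower of 36 by limma, edgeR and DESeq2, with 13 and 3 at an unadjusted p under 0.05. The higher count was 2 without any library other than -NaCl replicate 1 and +NaCl replicate 1 to 5 without -NaCl replicate 1. Gabarapl2, an ATG8 family protein, had 2238, 1979.9 and 2129.6 normalized counts with +NaCl, against 1785, 1531 and 1401 with -NaCl (log2 fold change 0.43 ± 0.08, adjusted p = 0.0064), and Atg2b, a lipid transfer protein of autophagosome growth, rose by 0.41 ± 0.05. The groups did not overlap in either gene.

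Most of the calls among chaperones and stress genes were falls, where 7.37% of all genes tested fell. Endoplasmic reticulum chaperones were 1 higher and 6 lower of 26 (lower count 2 without -NaCl replicate 2 or -NaCl replicate 3 to 8 without -NaCl replicate 1). Hsp90b1, the chaperone GRP94, had 7849, 7128 and 7561 normalized counts with +NaCl, against 9144, 10034 and 12707 with -NaCl (log2 fold change -0.49 ± 0.10, adjusted p = 0.0079), without overlap. Heat shock genes were 2 higher and 3 lower of 22 (higher count 0 without +NaCl replicate 3 or -NaCl replicates 2 or 3 and 1 without +NaCl replicate 1, lower count 1 without +NaCl replicate 3 or -NaCl replicates 2 or 3). Among them Hsp90ab1 fell by 0.38 ± 0.07, a call kept in every leave-out fit. NRF2 targets were 5 lower and 0 higher of 20 by limma, edgeR and DESeq2 (10 and 1 at an unadjusted p under 0.05, and a lower count of 3 without -NaCl replicates 2 or 3), led by Osgin1 and Nqo1. Nqo1, a quinone reductase, had 1602, 1537 and 1619 normalized counts with +NaCl, against 1991, 2451 and 2191 with -NaCl (log2 fold change -0.47 ± 0.07, adjusted p = 0.0023). Iron genes were 1 higher, the iron sensor Fbxl5 at 0.40 ± 0.08, and 3 lower (1 without -NaCl replicates 2 or 3) of 16, among them the ferroxidase Heph at -0.47 ± 0.06.

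Where 7.37% of all genes were lower and 7.29% higher, proteasome subunits were 5 lower of 32 by limma (4 by edgeR, 6 by DESeq2, 12 at an unadjusted p under 0.05, and 0 higher in each). With 1 library left out the proteasome count was 1 to 4, below 5 in each fit, and it was 1 without -NaCl replicates 2 or 3 and 2 without +NaCl replicate 1 and 3 without +NaCl replicates 2 or 3. Nuclear respiratory chain genes were 2 lower of 44 (0 without +NaCl replicates 2 or 3 or -NaCl replicate 2 and 1 without -NaCl replicates 1 or 3) and ribosomal protein genes 1 lower of 49 (0 without +NaCl replicate 1 or -NaCl replicates 1, 2 or 3 and 2 without +NaCl replicate 3). For the respiratory chain, DESeq2 called 6 lower, and at an unadjusted p under 0.05 there were 11 lower and 1 higher. For ribosomal proteins these numbers were 2 lower and 1 higher by DESeq2 and 3 lower and 1 higher unadjusted. The medians of the 3 lists were -0.10, -0.10 and -0.04. Ribosome biogenesis genes were 4 lower of 33 and 0 higher by limma (1 higher and 5 lower by edgeR, 0 and 5 by DESeq2, 0 and 10 unadjusted), with a lower count of 2 without -NaCl replicate 3 and 7 without -NaCl replicate 1. Of these, the nucleolar protein gene Npm1 and the rRNA methyltransferase Fbl fell by 0.36 ± 0.06 and 0.39 ± 0.06. Of 11 mitochondrially encoded genes, 0 were called by limma, edgeR and DESeq2, and 1 was lower at an unadjusted p under 0.05. Ribosomal protein genes, Npm1, Hsp90ab1 and Hnrnpc also have near-identical copies, and how the authors' counting shared such reads was not given in the sources used here.

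The extracellular matrix changed in both directions. Of 48 matrix proteoglycans and glycoproteins, 9 were higher and 14 lower (median -0.08, against 0.19 in control), beside 7.29% and 7.37% of all genes. Over the leave-out fits the higher count was 5 without -NaCl replicate 2, -NaCl replicate 3 or +NaCl replicate 1 to 10 without +NaCl replicate 2, and the lower one 7 without -NaCl replicate 3 to 12 without -NaCl replicate 1. Lum, the collagen-binding proteoglycan lumican, had 601, 636 and 623 normalized counts with +NaCl, against 464, 295 and 294 with -NaCl, a log2 fold change of 0.85 ± 0.15 (adjusted p = 0.004). Its relative Fmod, fibromodulin, went the other way, with 1818, 1698 and 1849.9 normalized counts with +NaCl, against 3378, 3678 and 3464 with -NaCl, a log2 fold change of -0.97 ± 0.06 (adjusted p = 2.0e-05). The groups did not overlap in either gene. Tnc, tenascin C, rose by 0.40 ± 0.07, less than the 0.92 of control cells (difference adjusted p = 0.0067). The tenascin Tnn rose by 0.89 ± 0.11 and Wisp1 by 0.51 ± 0.06. Ctgf fell by 0.45 ± 0.07 and Nid1, a basement membrane linker, by 0.55 ± 0.06.

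Collagens and their enzymes were 7 higher and 6 lower of 39, beside 7.29% and 7.37% of all genes. Of these collagen genes, 8 had a called difference from control, each lower in NFAT5KO, beside 1.44% of all genes. The higher count was 5 to 9 over the leave-out fits, and the lower one 3 without -NaCl replicates 2 or 3. Col11a1 had 15647, 17319 and 16922 normalized counts with +NaCl, against 12220, 9589.9 and 9803 with -NaCl, and Col12a1 had 13977, 13060 and 14815 normalized counts with +NaCl, against 10186, 7995 and 8827 with -NaCl. Both were higher in every +NaCl library, by 0.67 ± 0.09 (adjusted p = 0.0011) and 0.64 ± 0.08 (adjusted p = 0.0011). Crtap, a cofactor of proline hydroxylation, had 573, 611 and 681 normalized counts with +NaCl, against 932, 1299 and 1032 with -NaCl and fell by 0.80 ± 0.11. The lysyl hydroxylases diverged, with Plod2 at 0.28 ± 0.06 and Plod1 at -0.63 ± 0.06. Matrix proteases and their inhibitors were 4 higher and 4 lower of 26 (lower count 1 without -NaCl replicate 2 and 2 without +NaCl replicate 3 or -NaCl replicate 3), with Adamts12 at 0.59 ± 0.08 and the aggrecanase Adamts5 at -0.64 ± 0.10.

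Signalling genes changed most in the Wnt list, where 11 were higher and 7 lower of 38 (median 0.07), beside 7.29% and 7.37% of all genes. The higher count was 8 to 11 over the leave-out fits, and the lower count 3 without -NaCl replicate 3 to 8 without -NaCl replicate 1. The ligands Wnt7b and Wnt10b rose by 1.34 ± 0.23 and 0.67 ± 0.13. Several secreted or membrane inhibitors rose too. Wif1 had 9621, 9088 and 9912 normalized counts with +NaCl, against 7756, 6009 and 6071 with -NaCl (log2 fold change 0.54 ± 0.09, adjusted p = 0.003), Sfrp4 rose by 0.71 ± 0.14 and Notum by 0.58 ± 0.10, and Sost fell as given above. The receptors Fzd7 and Fzd1 fell by 0.42 ± 0.08 and 0.44 ± 0.09.

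BMP and TGF-beta genes were 7 higher and 3 lower of 40, beside 7.29% and 7.37% of all genes, and the lower count was 5 without -NaCl replicate 1. Inhba, an activin subunit, rose by 0.67 ± 0.12, Bmp3 by 0.58 ± 0.11 and the BMP antagonist Grem1 by 0.49 ± 0.10, the last less than the 1.34 of control cells (difference adjusted p = 0.0045). FGF, ERK and immediate early genes were 8 higher and 2 lower of 38, with a higher count of 4 without -NaCl replicate 2, -NaCl replicate 3 or +NaCl replicate 3 to 10 without -NaCl replicate 1. The lower count was 1 without +NaCl replicates 2 or 3 or -NaCl replicates 2 or 3 and 4 without -NaCl replicate 1. Among these genes were Phlda1 at 1.00 ± 0.11, Jun at 0.41 ± 0.08 and the ETS factor Etv5 at -0.62 ± 0.10. Circadian clock genes were 6 higher and 0 lower of 17 by limma and edgeR (5 and 0 by DESeq2, 10 and 0 at an unadjusted p under 0.05), with a higher count of 2 without -NaCl replicate 2, -NaCl replicate 3 or +NaCl replicate 3 to 6 without -NaCl replicate 1. The clock repressor Nr1d2 had 1945, 2161 and 1931 normalized counts with +NaCl, against 1545, 1462 and 1431 with -NaCl (log2 fold change 0.44 ± 0.06, adjusted p = 0.0015), without overlap. Irs1, an adaptor of insulin and IGF receptors, rose by 0.56 ± 0.08, and Igfbp4, an IGF-binding protein, fell by 0.32 ± 0.06.

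With all 6 libraries, NF-kB targets were 2 higher and 1 lower of 27, interferon genes 3 and 1 of 22, actin and YAP genes 4 and 3 of 32 and integrins 1 and 1 of 18. These compare with 7.29% higher and 7.37% lower of all genes. The NF-kB shares were 7.41% and 3.70%, and the integrin shares 5.56% and 5.56%, near or below those of all genes. The NF-kB fall was not called (0 without +NaCl replicate 3 or -NaCl replicates 2 or 3) when those libraries were left out. Leaving out a library changed the actin and YAP count to 2 without +NaCl replicates 1 or 3 or -NaCl replicates 2 or 3 for the higher and 1 without +NaCl replicates 2 or 3 or -NaCl replicates 2 or 3 for the lower genes, and the integrin rise was lost or joined by another, with 0 without +NaCl replicates 1 or 3 or -NaCl replicates 2 or 3 and 2 without +NaCl replicate 2. The interferon rises were Ddx58, Stat2 and B2m, and limma called 0 of the list higher without -NaCl replicate 2, -NaCl replicate 3, +NaCl replicate 1 or +NaCl replicate 3. Cxcl10, a chemokine in the NF-kB list, had 169.7, 162 and 169 normalized counts with +NaCl, against 98.1, 84 and 66.6 with -NaCl (log2 fold change 1.02 ± 0.16, adjusted p = 0.0029), and its groups did not overlap. Of 10 NFAT family genes and regulators, 2 were higher by limma, Nfat5 and Nfatc4 (0.29 ± 0.08, adjusted p = 0.035, lost without any 1 library other than -NaCl replicate 1, adjusted p up to 0.12). None of them was lower by limma, edgeR or DESeq2 or at an unadjusted p under 0.05.

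Most of the response without NFAT5 ran in the direction seen in control cells. Of the 2441 called genes, 2440 were also tested in control cells, and 2315 (94.9%) had the same sign there. In control cells 1729 of them (70.9%) were called in the same direction, 16 in the opposite direction and 695 were not called. Of the 4413 genes called in control cells and tested in NFAT5KO, 39.2% were called the same way in NFAT5KO, and control cells had 4450 calls (26.0%). The 2 genotypes share no libraries, and their tables were normalized separately. A difference between the responses was called for 304 of 16849 genes (1.8%), 61 higher (0.362%) and 243 lower (1.44%) in NFAT5KO. Of the 2440 NFAT5KO-responsive genes, 100 had a called difference. Of these, 47 moved in the same direction as in control cells but less, 14 moved more, and 39 had the opposite sign, 26 with a fall in NFAT5KO and 13 with a rise.

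**Figure D4:**
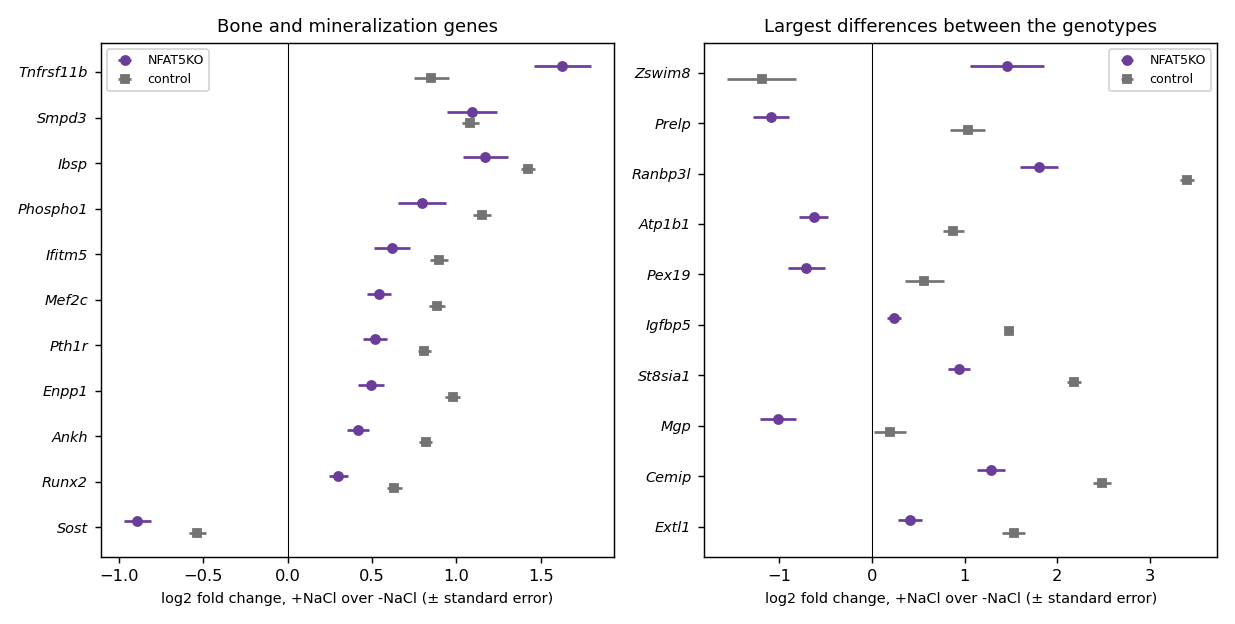
Log2 fold change of +NaCl over -NaCl (horizontal axis, bars of 1 standard error) in NFAT5KO cells (purple circles) and control cells (grey squares) for 11 bone and mineralization genes (left) and the 10 largest called differences between the genotypes among genes called in NFAT5KO cells that averaged 50 or more normalized counts (right). Prelp lies at -1.09 in NFAT5KO and 1.03 in control cells, whereas in the left panel both genotypes lie on the same side of 0 for every gene.

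Among genes that were also called in NFAT5KO cells and averaged 50 or more, the 10 leading differences held 5 that rose in NFAT5KO cells, but less than in control cells. Ranbp3l had a log2 fold change of 1.80 in NFAT5KO against 3.40 in control cells, a difference of -1.60 ± 0.25 (adjusted p = 0.0025). Cemip had 1.29 against 2.48 (adjusted p = 0.0064), and St8sia1, a ganglioside-making sialyltransferase that overlaps another gene, 0.94 against 2.18 (adjusted p = 3.9e-05). Igfbp5, an IGF-binding protein of bone, and Extl1, of heparan sulfate synthesis, rose by only 0.24 ± 0.07 and 0.41 ± 0.13 in NFAT5KO against 1.48 and 1.53 in control cells. The NFAT5KO call of Igfbp5 was lost without any 1 library other than -NaCl replicate 1, adjusted p up to 0.17, and that of Extl1 was lost without any 1 library, adjusted p up to 0.16. The differences were nonetheless -1.24 ± 0.08 (adjusted p = 3.4e-07) and -1.12 ± 0.18 (adjusted p = 0.0026).

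Prelp, a leucine-rich matrix proteoglycan, had the opposite direction in the 2 genotypes. It had 38.3, 36.9 and 39.8 normalized counts with +NaCl, against 83, 87.3 and 77.7 with -NaCl in NFAT5KO cells, and 120.0, 103 and 131 with +NaCl against 47.5, 55.9 and 68.9 with -NaCl in control cells. The groups did not overlap in either genotype, and the difference of the log2 fold changes was -2.12 ± 0.25 (adjusted p = 0.00029, at most 0.002 with any 1 library left out). Mgp, an inhibitor of calcification, fell in NFAT5KO with 76.5, 84.6 and 72 normalized counts with +NaCl, against 113, 193 and 178 with -NaCl, against 0.20 on the log2 scale in control cells (difference -1.21 ± 0.28, adjusted p = 0.036, lost in 10 of the 12 leave-out fits, all but without NFAT5KO -NaCl replicate 1 or control -NaCl replicate 3, adjusted p up to 0.1). Atp1b1, a sodium pump subunit that overlaps Nme7 on the other strand, had -0.63 ± 0.15 against 0.88 (difference adjusted p = 0.00032, NFAT5KO call lost without -NaCl replicate 2, -NaCl replicate 3, +NaCl replicate 1 or +NaCl replicate 2, adjusted p up to 0.098). Pex19 (ENSRNOG00000022572), which overlaps Ctif, had -0.71 against 0.57 (difference adjusted p = 0.042, lost in 9 of the 12 leave-out fits, all but without NFAT5KO -NaCl replicate 1, control -NaCl replicate 3 or control +NaCl replicate 1, adjusted p up to 0.12), while a second model of that symbol had 0.41 in NFAT5KO (adjusted p = 0.064). Zswim8 was the one large difference toward a rise in NFAT5KO, at 1.46 ± 0.40 against -1.19 (difference adjusted p = 0.047, lost in 11 of the 12 leave-out fits, all but without NFAT5KO -NaCl replicate 2, adjusted p up to 0.13, and NFAT5KO call lost without -NaCl replicate 1, -NaCl replicate 3, +NaCl replicate 2 or +NaCl replicate 3, adjusted p up to 0.13).

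The study cites Slc14a2, Fxyd2, Sgk1, Pnpla6, Igfbp7 and Itga10 as NFAT5 targets from earlier work, and reports that its data bore this out. Its wider set of potential targets was picked as changed in control but unchanged in NFAT5KO cells, from these same libraries. Neither a missing call in NFAT5KO cells nor a difference from control cells is therefore separate support. Of the targets given here, those tested were not called in NFAT5KO cells. Itga10, a collagen-binding integrin, had 520.5, 539.7 and 544 normalized counts with +NaCl, against 590.2, 559 and 710.4 with -NaCl, a log2 fold change of -0.21 (interval -0.40 to -0.01, adjusted p = 0.15). Its groups did not overlap. In control cells it was 0.70, and the difference of -0.90 ± 0.10 was called (adjusted p = 0.00016). Igfbp7 had -0.01 (-0.20 to 0.18) against 0.55, with a called difference (adjusted p = 0.023, lost when NFAT5KO -NaCl replicate 1, NFAT5KO -NaCl replicate 2, control -NaCl replicate 1, control -NaCl replicate 2 or control +NaCl replicate 3 was left out, adjusted p up to 0.074), and it overlaps other genes on the opposite strand. Nfkbia, an inhibitor of NF-kB, had 0.10 against 0.72, also with a called difference (adjusted p = 0.0008). For Pnpla6 and Sgk1 the difference was not called, at -0.31 ± 0.10 and -0.26 ± 0.17 (adjusted p = 0.13 and 0.57). Slc14a2, a urea transporter, held 13 reads in all with +NaCl and 7 with -NaCl. Fxyd2 held 1 and 2, too few for a test.

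Longer genes were called higher more often. When genes averaging 50 or more normalized counts were split into quartiles by the length of their gene model, median lengths were 1086, 1946, 2954 and 4908 bases. The share called higher was 2.99, 7.72, 10.3 and 19.3% from the shortest to the longest quartile, and the share called lower 11.7, 11.5, 9.14 and 8.04%. The median log2 fold change ran -0.06, -0.02, 0.01 and 0.07 in NFAT5KO and -0.04, -0.02, 0.02 and 0.06 in control cells. The median length was 3482.5 bases for genes called higher, 2100.0 for genes called lower and 1984.5 for the rest. The median length was 2436 bases in the osteoblast list, 2997 in the sterol list, 2068 in the serine list and 1410 in the proteasome list, and the part of gene length in the counts of the lists was not tested.

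**Figure D5:**
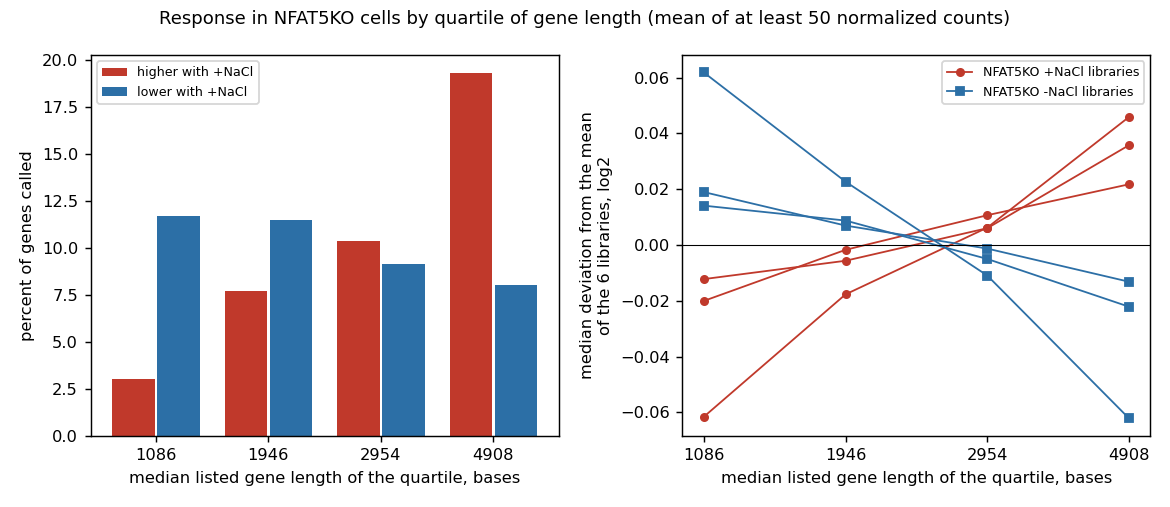
Left, percentage of genes called higher (red) and lower (blue) with +NaCl in NFAT5KO cells in each quartile of gene model length (horizontal axis, median length in bases), for genes averaging 50 or more normalized counts. Right, median deviation of each library from the mean of the 6 libraries (log2) in the same quartiles, with +NaCl libraries as circles and -NaCl libraries as squares. The percentage called higher is 2.99% in the shortest and 19.3% in the longest quartile, and in the longest quartile all +NaCl libraries lie above 0 and all -NaCl libraries below.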

How the data were processed

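Poly-A RNA of UMR-106 cells was made into NEBNext Ultra libraries and sequenced as paired ends. The deposited values are a signal, the normalized read count per gene and library, which the authors made by dividing reads by 1 factor per library, in 1 table per genotype. Gene length is the deposited bases of the gene model as the authors list them. The aligner and counting tool are not given in the sources used here, nor is strandedness. The labels name mm10, whereas identifiers and coordinates are those of rat. Table names conflict with the column labels, which were followed. The authors' fold changes and p values were not used, nor were 24 unlabelled value columns. All values (100% in each library, within 0.1 read) came out as whole reads, which gave depth and were tested with edgeR 4.0.16 and DESeq2 1.42.0 as alternatives.

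The main test was limma 3.58.1 (R 4.3.3) with a mean-variance trend on log2(normalized count + 1), for genes with a mean of at least 1 over the 6 NFAT5KO libraries, with an adjusted p of 0.05 as threshold. The authors' own test was replaced because it was not described. The difference between genotypes is the interaction in a model of all 12 libraries. Alternatives were pseudocounts of 0.5 and 5, a minimum mean of 10 or none, equal totals, TMM, no trend, library weights, a replicate block and leaving out each library. Replicates differed by more than sampling noise (chi-square per gene of 4.93 or more), so none was counted as a duplicate. Genes are named if they are among the 15 largest called rises or falls without overlap between groups, or the 10 largest called differences of genes called in NFAT5KO cells (average of 50 or more), list members that rank in the first 6 by p or have a chief role, or genes the study names. Of 1174 list genes 1069 were tested, and 17 were matched by an older symbol that no other gene now bears. Some genes that meet these rules are not reported here. The members and lists were chosen with earlier results of these data known. Scripts were tested on simulated counts. Figures were drawn with matplotlib 3.10.9 (Python 3.11.15).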

Additional observations from a re-analysis of the deposited data

Results flagged for a closer look

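The responses of 10 genes differed between NFAT5KO and control cells by the test of the difference itself (limma, adjusted over 16849 genes), and they are the largest such differences among genes called in NFAT5KO cells that averaged 50 or more normalized counts. As NFAT5KO minus control log2 fold changes, they were 2.65 for Zswim8 (adjusted p = 0.047), -2.12 for Prelp (0.00029), -1.60 for Ranbp3l (0.0025), -1.50 for Atp1b1 (0.00032), -1.27 for Pex19 (0.042), -1.24 for Igfbp5 (3.4e-07), -1.24 for St8sia1 (3.9e-05), -1.21 for Mgp (0.036), -1.19 for Cemip (0.0064) and -1.12 for Extl1 (0.0026). With 1 of the 12 libraries left out, the calls of Zswim8, Mgp and Pex19 were lost in 11, 10 and 9 of the 12 fits, and the others were kept. The knockout came from 1 clone, so the deletion and the clone cannot be told apart.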

How the results depend on the processing

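The count of 2441 genes called in NFAT5KO cells stayed between 1992 and 3172 under both pseudocounts, both filters, both scalings, edgeR, DESeq2, library weights, the replicate block and the model of 12 libraries. It was 14 without a mean-variance trend, where Nfat5 had 0.80 (adjusted p = 0.076), and 923 to 2706 with 1 library left out. The cause was not tested. A fit by edgeR without -NaCl replicate 1, chosen after seeing the data, called 2736. The 304 genes with a called difference became 484 by DESeq2 and 103 without a trend, and 159 to 256 with 1 of the 12 libraries left out (159 without control +NaCl replicate 3, 171 and 183 without control -NaCl replicates 2 and 1, 176 and 200 without control +NaCl replicates 2 and 1). Of 234 named genes called in NFAT5KO cells, 90 lost the call in at least 1 leave-out fit, 8 by edgeR, 11 by DESeq2 and 229 without a trend, and no named gene changed sign with a call. The values gave no sign that replicate numbers pair these libraries. Deviations of same-numbered libraries correlated at -0.00026, -0.052 and 0.012, and no library correlated best with its own number. Whether cultures were run in pairs is not stated, and these correlations cannot settle it. With the replicate number as a block, 1992 genes were called, 247 differences were called, and Nfat5 kept 0.80 (adjusted p = 0.0024). Counts below about 3 reads, such as those of Mmp3 and Fxyd2, allow no comparison at this depth.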

Other observations

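Of the genes called in NFAT5KO cells, 16 were called in the opposite direction in control cells and 695 were not called there, and those named here were picked after their values were seen. Ngfr, a neurotrophin receptor, had 1994, 1695 and 1929 normalized counts with +NaCl, against 2853, 2458 and 2574 with -NaCl in NFAT5KO cells, a log2 fold change of -0.49 ± 0.07 (SE, adjusted p = 0.0022), against 0.46 in control cells (difference -0.95 ± 0.09, adjusted p = 3.1e-05). Its groups did not overlap in NFAT5KO cells. The glutamate receptor subunit Grin2c, the ubiquitin ligase Rnf144a and the chromatin reader Zmynd8 likewise fell, by 0.71, 0.67 and 0.32 in NFAT5KO cells. In control cells they rose by 0.33, 0.25 and 0.21, with adjusted p values of 0.0026, 0.00049 and 0.00031 for the difference. Hhip, an inhibitor of hedgehog signalling, had 1885, 1742 and 1843 normalized counts with +NaCl, against 2686, 2823 and 3227 with -NaCl in NFAT5KO cells, a log2 fold change of -0.67 ± 0.07 (adjusted p = 0.00049), against -0.07 in control cells (difference adjusted p = 0.002). In the other direction, the receptor tyrosine kinase Kit had 1310.1, 1216 and 1209 normalized counts with +NaCl, against 1009.8, 821 and 781 with -NaCl in NFAT5KO cells, a log2 fold change of 0.52 ± 0.09 against -0.08 in control cells (difference adjusted p = 0.024, lost when NFAT5KO -NaCl replicate 2, NFAT5KO -NaCl replicate 3, NFAT5KO +NaCl replicate 1, control -NaCl replicate 1 or control +NaCl replicate 3 was left out, adjusted p up to 0.074). The calls were also uneven between kinds of genes. Of 582 long intergenic RNAs tested, 13 were higher and 8 lower, and of 14695 protein-coding genes, 1189 were higher and 1206 lower. Among all genes tested, 7.29% were called higher and 7.37% lower. These kinds of genes were not matched for abundance, and the part of abundance in the counts was not tested. Among the called genes, 132 had no established symbol, and 32 of these moved more than 2-fold.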
